A study of Arabidopsis thaliana with 6 samples.

Results

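The 45 genes described here are the pseudogenes among the 5322 rows of the authors' deposited table, which compares seedlings of the dme mutant with wild type in Arabidopsis thaliana. They were chosen by the gene type written in that table, and all 45 are also typed as transcribed pseudogenes in the RefSeq annotation of TAIR10.1. RNA came from whole seedlings of the accession Ler at 7 days after germination on MS plates, with 3 libraries of wild type (WT) and 3 of the mutant, whose genotype is labelled dme/-. The labels name no transgene, no agent and no complemented line, and whether replicate libraries were grown as separate cultures is not said, so the authors' p-values may measure technical spread alone. The table gives no value per library: for each gene it holds the mean normalized count of the 6 libraries, a fold change and an adjusted p-value. It lists only genes at least 2-fold apart with an adjusted p under 0.05, so that each of the 45 had passed the authors' test, and a pseudogene outside the table has no value here. The direction, dme over WT, was read from the name of the table. By the authors' deposited table, the log2 fold change of DME itself was -1.55 (adjusted p 4.88e-17), and 5292 of the 5322 rows could be matched to the annotation. Markers of the seedling tissues could not be checked, since unchanged genes have no row.

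A pseudogene is a stretch of DNA that resembles a protein-coding gene but carries stop codons, frame shifts or truncations, and many arise as extra copies within tandem arrays of a gene family or from pieces of other genes. Some are still transcribed, and their transcripts share long runs of sequence with the genes they resemble. DME encodes a DNA glycosylase that excises 5-methylcytosine and so removes DNA methylation; it is best known for its role in the central cell of the ovule and in pollen. Plant pseudogenes and transposable elements often carry such methylation.

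Sequences of the reference genome show how near these pseudogenes stand to intact genes, and so how well short reads could tell them apart. They are given 5′ to 3′ on the gene's strand from RefSeq TAIR10.1, a Col-0 assembly, whereas the samples were Ler. The first pairs are 60-base windows of a pseudogene and of the protein-coding gene nearest to it in protein sequence, with the bases that differ in capitals. AT3G46250, a receptor-like kinase pseudogene at chr3:16992216-16992275 on the minus strand, is set against AT3G46270 at chr3:17003029-17003088 on the minus strand, with 3 differences. The cytochrome P450 pseudogene CYP705A26P at chr1:18721917-18721976 on the plus strand is set against CYP705A25 at chr1:18724294-18724353 on the plus strand, also with 3 differences. AT2G20910, a pseudogene of the B subunit of the vacuolar ATPase at chr2:8996043-8996102 on the minus strand, is set against VAB2 at chr4:18014033-18014092 on the minus strand, with 9 differences. AT3G30817, a lysyl-tRNA synthetase fragment at chr3:12511529-12511588 on the minus strand, is set against ATKRS-1 at chr3:3703718-3703777 on the minus strand, with 11 differences.
AT3G46250: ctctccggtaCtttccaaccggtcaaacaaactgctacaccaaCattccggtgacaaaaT
AT3G46270: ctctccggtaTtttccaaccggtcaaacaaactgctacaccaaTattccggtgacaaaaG
CYP705A26P: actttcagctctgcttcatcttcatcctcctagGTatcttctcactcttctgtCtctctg
CYP705A25: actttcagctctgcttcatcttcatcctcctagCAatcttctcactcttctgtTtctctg
AT2G20910: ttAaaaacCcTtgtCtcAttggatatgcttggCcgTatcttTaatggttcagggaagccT
VAB2: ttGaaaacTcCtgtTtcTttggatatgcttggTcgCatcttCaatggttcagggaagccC
AT3G30817: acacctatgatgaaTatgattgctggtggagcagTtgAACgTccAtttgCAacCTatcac
ATKRS-1: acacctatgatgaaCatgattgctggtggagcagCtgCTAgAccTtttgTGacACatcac

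The next windows show what breaks the reading frame in a pair of pseudogenes that rose in dme, with the stop codon and the codon at that place in the closest gene in capitals. In WAKL3, a wall-associated kinase-like pseudogene, the stop lies at the codon for residue 24 of WAKL1; the windows are chr1:5528945-5529003 and chr1:5522680-5522738, both on the plus strand. In AT5G40920, a pseudogene of the TIR-NBS-LRR class of immune receptors, it lies at the codon for residue 194 of AT5G40910; the windows are chr5:16401339-16401397 and chr5:16396182-16396240, both on the plus strand.
WAKL3: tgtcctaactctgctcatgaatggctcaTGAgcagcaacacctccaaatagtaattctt
WAKL1: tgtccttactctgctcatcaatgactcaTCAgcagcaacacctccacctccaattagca
AT5G40920: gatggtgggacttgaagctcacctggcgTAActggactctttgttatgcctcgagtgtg
AT5G40910: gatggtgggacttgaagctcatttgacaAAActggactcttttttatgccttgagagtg

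Of the 45 pseudogenes, the authors' deposited table gives 27 as higher and 18 as lower in dme. Higher genes thus made up 60% of the pseudogenes, beside 72.8% of all 5311 distinct measurements, and lower genes 40%, beside 27.2%. The share of higher genes was 73.7% among the protein-coding genes of the table and 49.4% among its 77 transposable element genes. Among the 62 noncoding genes typed as other RNA it was 41.9%. The exact 95% binomial interval of the pseudogenes' share, 44.3% to 74.3%, covers counting error only. It takes the 45 as independent, although some are neighbours. The interval holds the shares of all measurements, of protein-coding genes and of transposable element genes, but not that of other RNA. The share of other RNA has its own interval of 29.5% to 55.2%, which overlaps with that of the pseudogenes, and the difference was not tested. In bulk seedlings, fewer cells of a type and less RNA per cell cannot be told apart. The 45 are 4.86% of the 926 annotated transcribed pseudogenes, while 18.5% of the 27550 annotated protein-coding genes were listed; genes that were never tested are in both denominators.

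Most of the pseudogenes were read at low level. The median of the mean normalized counts in the authors' deposited table was 36.3, beside 204.3 over all listed measurements, and 13 of the 45 (28.9%) had a mean under 10, beside 5.29% of all. Their adjusted p-values were also larger, with 34 of 45 (75.6%) under 0.01, beside 90.5% of all. For 8 of the 45 (17.8%) the deposited fold was fixed by the mean alone, which is what a gene without reads in 1 genotype gives; this held for 5.46% of all listed measurements. No fold is given for those 8, of which 5 had reads only in dme and 3 only in WT. Among the other 37, the authors' deposited table gives a median log2 fold change of 2.54 for the 22 higher and of -2.13 for the 15 lower pseudogenes, beside 1.98 and -1.38 over all listed genes with reads in both genotypes. At least 4-fold changes with reads in both genotypes were found for 22 of the 45 (48.9%), 14 higher and 8 lower, beside 39.3% of all listed measurements. A gene with few reads passes a test only at a larger fold, and the low means and the larger folds of the pseudogenes occurred together; the part of the one in the other was not tested.

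**Figure D1:**
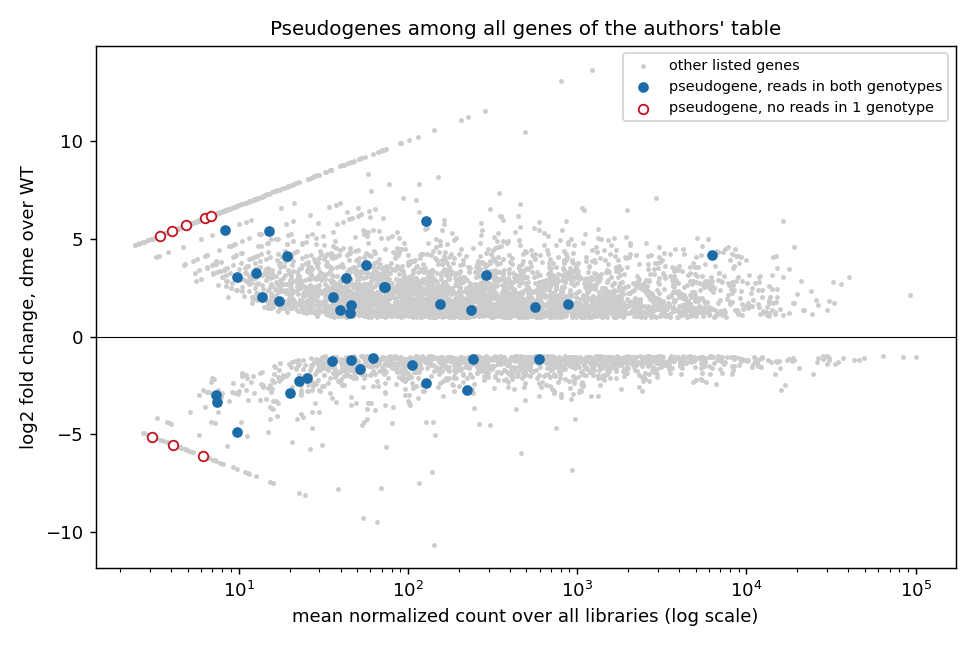
Log2 fold change of dme over WT (vertical) against the mean normalized count over all libraries (horizontal, log scale) for every row of the authors' deposited table, with no error bars because standard errors were not used here. Grey points are other listed genes, blue points the 37 pseudogenes with reads in both genotypes, and open red points the 8 without reads in 1 genotype, whose height is fixed by their mean; most pseudogenes lie at means below the median of 204.3 of all listed genes.

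For the 37 pseudogenes with reads in both genotypes, the mean and the fold together give a mean per genotype, under the assumption that the mean weights all 6 libraries equally and the fold was not shrunk. These implied means carry no error. Per kb of exon, the mean normalized count of the 27 higher pseudogenes ran from 1.82 to 1329 with a median of 18.5, and that of the 18 lower ones from 2.97 to 321.9 with a median of 36. The levels of the rising and falling pseudogenes thus overlapped over most of their range.

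**Figure D2:**
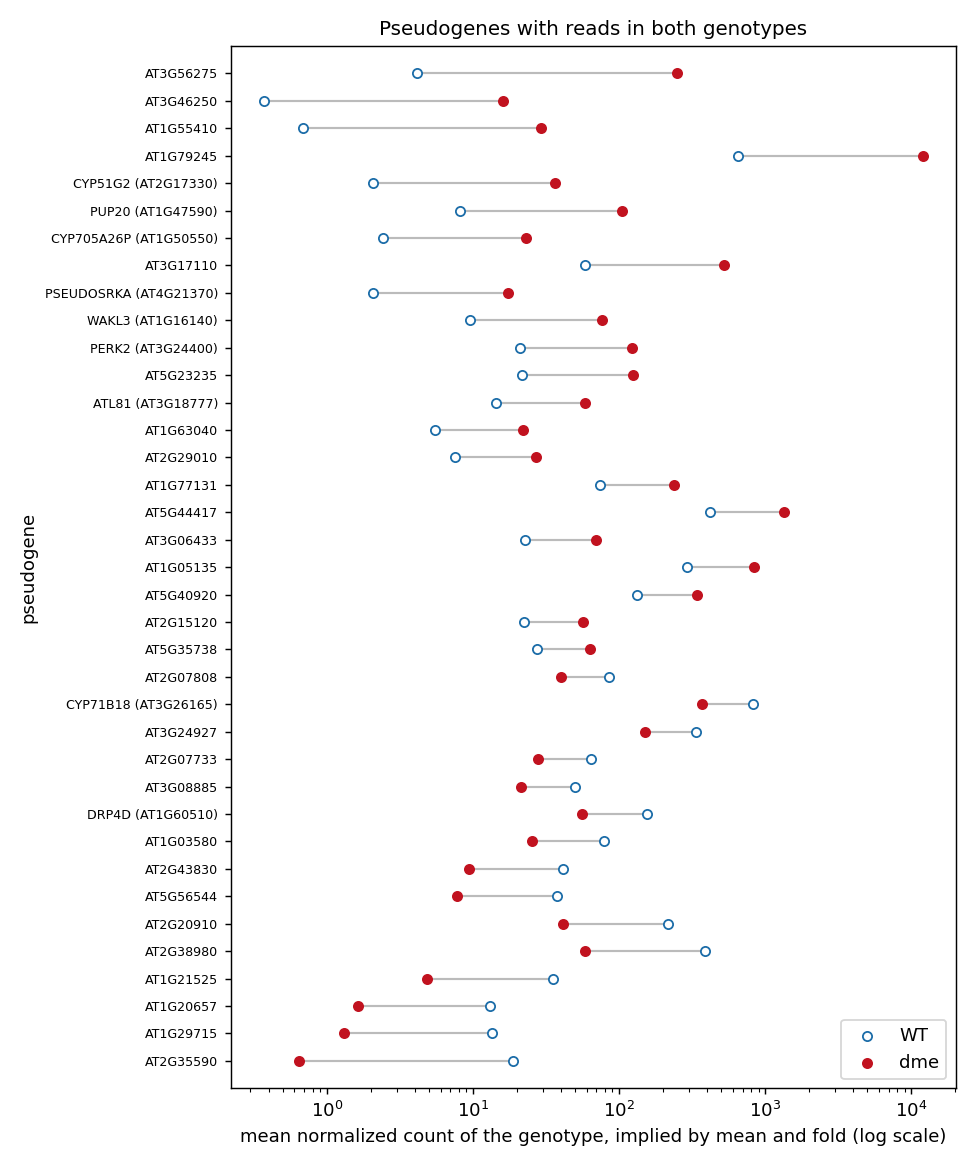
Implied mean normalized count in WT and in dme (horizontal, log scale) for each of the 37 pseudogenes with reads in both genotypes (vertical), each point being computed from the mean and fold of the authors' deposited table, with no error bars as no value per library was given. The highest, AT1G79245, went from an implied 652.2 in WT to 11933 in dme.

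All 4 pseudogenes of aminoacyl-tRNA synthetases, the enzymes that load tRNAs with their amino acids, were lower in dme. The only listed protein-coding gene of this family was higher. Lysyl-tRNA synthetase fragments account for 3 of the 4, and each of these had no reads in dme. AT3G30817 had a mean of 6.17 in the authors' deposited table (adjusted p 0.000657), which is a sum of 37.0 normalized counts over the 3 WT libraries. AT3G30813 had a mean of 4.11 in the authors' deposited table, a sum of 24.7 in WT (adjusted p 0.00467), and AT3G30812 a mean of 3.09, a sum of 18.5 (adjusted p 0.0172). All 3 levels were low, and the depth of the dme libraries, which limits what a count of 0 means, is unknown.

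The 3 lysyl fragments are neighbours on chromosome 3, all on the minus strand, within 9131 bases of the reference. Along ATKRS-1, a lysyl-tRNA synthetase of 626 residues, AT3G30817 matches residues 304 to 397, AT3G30813 residues 397 to 508 and AT3G30812 residues 506 to 551, so that they follow each other in the order of the protein. Gaps of 2396 and 5671 bases separate them, and the 2 other annotated genes between them are neither protein-coding nor listed. As neighbours they may not be 3 independent observations, although each was counted singly in the counts of lower pseudogenes given here. None shared a 100-base word with another place in the reference, and ATKRS-1 was not listed. The fourth, AT5G56544, resembles arginyl-tRNA synthetase and fell from an implied mean of 37.8 in WT to 7.82 in dme, with a log2 fold change of -2.27 by the authors' deposited table (adjusted p 0.000654). Its closest protein, emb1027, shares 32.1% of the aligned residues, and 13 stop codons lie inside the aligned stretches.

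Kinases, most of them receptor kinases of the cell surface, were the largest named family, with 7 pseudogenes, 5 higher and 2 lower. The listed protein-coding genes whose descriptions name a kinase numbered 237, of which 202 (85.2%) were higher. The largest rise of a kinase pseudogene was that of AT3G46250, with a log2 fold change of 5.45 by the authors' deposited table (mean 8.27, adjusted p 0.000698). Its implied sum over the WT libraries was 1.11 normalized counts, so this fold rests on very few reads. WAKL3, a member of the wall-associated kinase-like family, rose from an implied mean of 9.58 in WT to 76.1 in dme, a log2 fold change of 2.99 by the authors' deposited table (adjusted p 0.000755). PERK2, of the proline-rich extensin-like receptor kinases, rose from an implied 21.0 to 123.4, a log2 fold change of 2.56 by the authors' deposited table (adjusted p 0.000156).

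PSEUDOSRKA is the relic of SRK, the stigma receptor that recognises self pollen in outcrossing relatives, and it is a known pseudogene in Arabidopsis thaliana. It was higher in dme, with a log2 fold change of 3.06 by the authors' deposited table (adjusted p 0.0105), at an implied 2.08 in WT and 17.3 in dme. The leucine-rich repeat kinase pseudogene AT2G29010 had a log2 fold change of 1.84 by the authors' deposited table (adjusted p 0.0292). The 2 falling members were AT1G29715, from an implied 13.5 to 1.31, and AT2G43830, a relative of the NPK1 type of kinases, from 41.0 to 9.37. By the authors' deposited table the log2 fold changes were -3.36 (adjusted p 0.0473) and -2.13 (adjusted p 0.000164), and AT1G29715 was the member nearest to the limit on the adjusted p.

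The 4 pseudogenes of zinc finger or RING proteins were all higher. Among the listed protein-coding genes with these words, 82 were higher and 67 lower. The CHP-rich type, a cysteine- and histidine-rich domain also called C1, accounts for 3 of the 4, and 57 of 64 listed protein-coding genes of that type were higher (89.1%). AT1G55410 rose from an implied mean of 0.684 in WT to 29.4 in dme, a log2 fold change of 5.42 by the authors' deposited table (adjusted p 2.98e-05); its implied sum in WT was 2.05 normalized counts. AT3G27095 and AT2G13910 had no reads in WT and sums of 24.1 and 29.4 normalized counts over the dme libraries, with adjusted p-values of 0.00782 and 0.00404 in the authors' deposited table. ATL81, of the RING-H2 ATL family of ubiquitin ligases, rose from an implied 14.4 to 58.2, a log2 fold change of 2.02 by the authors' deposited table (adjusted p 0.000292).

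Cytochrome P450 enzymes, which oxidise many plant metabolites, gave members in both directions. CYP705A26P was higher, with a log2 fold change of 3.25 by the authors' deposited table (adjusted p 0.00468), at an implied 2.41 in WT and 23.0 in dme. CYP71B18 was lower, from an implied 821.6 to 370.8, a log2 fold change of -1.15 by the authors' deposited table (adjusted p 3.93e-13). CYP51G2, a relative of the sterol 14-alpha demethylase CYP51G1 of sterol synthesis, was higher, from an implied 2.07 to 36.5, a log2 fold change of 4.14 by the authors' deposited table (adjusted p 5.41e-05). Listed protein-coding genes whose descriptions name a cytochrome P450 numbered 82, with 58 higher and 24 lower, so that the pseudogenes and the coding genes both went both ways.

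Both pseudogenes of disease resistance genes were higher, as were 64 of 71 listed protein-coding genes with these words. AT5G40920, whose stop codon is shown above, rose from an implied mean of 131.7 to 339.7, a log2 fold change of 1.37 by the authors' deposited table (adjusted p 0.00069). AT2G15120 had a log2 fold change of 1.34 by the authors' deposited table (adjusted p 0.0142), although the protein it most resembles, AT2G15220, is of the BSP family and no resistance protein. Pseudogenes of transcription factors, which bind DNA and set the rate of transcription, were represented by AT5G35738 of the WRKY family and AT1G63040 of the AP2/ERF family. By the authors' deposited table the log2 fold changes were 1.22 (adjusted p 0.0104) and 2.0 (adjusted p 0.0187). Of the listed protein-coding genes, 32 of 33 WRKY genes and 15 of 18 AP2/ERF genes were higher.

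Further rising pseudogenes were also single members of their families. PUP20 belongs to the purine permeases, which carry nucleobases and related compounds such as cytokinins across membranes, and rose from an implied mean of 8.17 to 105.1, a log2 fold change of 3.68 by the authors' deposited table (adjusted p 6.89e-08). AT1G77131, which resembles glycogenin-like glycosyltransferases, rose from 73.6 to 237.2, a log2 fold change of 1.69 by the authors' deposited table (adjusted p 1.08e-10). AT3G06433, whose description names the MtN3 family of sugar transporters, had a log2 fold change of 1.60 by the authors' deposited table (adjusted p 0.000844). The protein it most resembles is AT4G20953, at 91.5% over 117 aligned residues. AT5G44417, described as CPRD2-related, rose from an implied 421.3 to 1340, a log2 fold change of 1.67 by the authors' deposited table (adjusted p 6.78e-15). AT1G18191 resembles the small GTPase RABA6b, of the Rab proteins of vesicle traffic, and had no reads in WT and a sum of 20.5 in dme (adjusted p 0.0136 in the authors' deposited table).

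The highest level, the largest rise with reads in both genotypes and the smallest adjusted p belonged to pseudogenes with little or no resemblance to a known family. AT1G79245, of unknown kind, was the most abundant member with a mean of 6293, or 1329 per kb of exon, and a log2 fold change of 4.19 by the authors' deposited table (adjusted p 8.44e-32). Its exons span 4735 bases, and the closest protein, AT1G77570, shared 37.5% of 88 aligned residues. AT3G56275 had the largest fold, from an implied 4.13 in WT to 250.0 in dme, a log2 fold change of 5.92 by the authors' deposited table (adjusted p 9.42e-25). The glycine-rich protein pseudogene AT3G17110 had the smallest adjusted p of all members, 2.84e-33 by the authors' deposited table, where its log2 fold change was 3.15, and implied means of 58.6 and 520.9. No protein-coding gene with a matching protein sequence was found for AT3G56275 or AT3G17110; AT3G17110 had a nucleotide match to AT4G36230, at 73.7% over 137 bases.

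The other pseudogenes of unknown kind were higher in 3 cases and lower in 2. AT1G05135 rose from an implied mean of 292.8 to 834.7, with a log2 fold change of 1.51 by the authors' deposited table (adjusted p 1.84e-07). AT1G34044 and AT2G19200 had no reads in WT and sums of 38.0 and 41.2 normalized counts in dme, with adjusted p-values of 0.000435 and 0.000353 in the authors' deposited table. AT3G24927 fell from an implied 335.7 to 149.3, with a log2 fold change of -1.17 by the authors' deposited table (adjusted p 1.37e-10). AT1G21525 fell from 35.2 to 4.82, with a log2 fold change of -2.87 by the authors' deposited table (adjusted p 0.000371). The unknown group thus contained the most abundant member and 2 of those without reads in 1 genotype.

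Most other falling pseudogenes were single members of their families. AT2G20910, whose sequence is shown beside VAB2, resembles the B subunit of the vacuolar proton pump and fell from an implied mean of 215.6 to 41.2, by 2.39 (log2) by the authors' deposited table, where no other falling member had a smaller adjusted p (5.31e-17). AT2G35590, which resembles serpins, a family of protease inhibitors, had the largest fall among members with reads in both genotypes, with a log2 fold change of -4.87 by the authors' deposited table (adjusted p 0.000728). Its implied mean was 18.9 in WT and 0.645 in dme. AT2G38980, described by a cotton fiber protein, fell from 386.2 to 58.5, a log2 fold change of -2.72 by the authors' deposited table (adjusted p 0.00536). The protein it most resembles is CAT4, at 87.5% over 80 aligned residues.

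DRP4D, of the dynamin-like GTP-binding proteins, fell from an implied mean of 155.3 to 55.8, a log2 fold change of -1.48 by the authors' deposited table (adjusted p 4.02e-07). AT1G03580, with a MATH domain, fell from 78.6 to 25.2, a log2 fold change of -1.64 by the authors' deposited table (adjusted p 1.93e-05). AT3G08885 resembles ferritin, the iron store of plastids, and had a log2 fold change of -1.24 by the authors' deposited table (adjusted p 0.0107). The F-box pseudogene AT1G20657 fell from 13 to 1.63, a log2 fold change of -3.0 by the authors' deposited table (adjusted p 0.0298). Listed F-box coding genes numbered 49, with 19 higher and 30 lower.

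The 2 pseudogenes of mitochondrial genes, AT2G07733 and AT2G07808 on chromosome 2, were both lower and had the same sequence as the mitochondrial genome over most of their length. AT2G07733 resembles nad2, a subunit of respiratory complex I, and all of its 561 words of 100 bases (100%) occur in the mitochondrial genome. For AT2G07808, which resembles ATMG01330, this held for 84.1% of 290 words. A window of AT2G07733 at chr2:3470631-3470690 on the minus strand is shown because it is identical to a place in the mitochondrial genome.
AT2G07733: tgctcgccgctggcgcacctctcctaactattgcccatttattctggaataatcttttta
By the authors' deposited table the log2 fold changes were -1.20 (adjusted p 0.00592) and -1.09 (adjusted p 0.00802), and AT2G07808 was the member nearest to the limit on the fold. Reads of the nuclear copy and of the mitochondrial genome cannot be told apart in such windows. Of the 15 mitochondrial genes in the authors' deposited table, 12 were lower, with log2 fold changes from -4.16 to -1.08, and 3 higher; neither nad2 nor ATMG01330 was among them.

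For 38 of the 45 pseudogenes, 23 higher and 15 lower, a nuclear protein-coding gene with a matching protein sequence was found. The identity of the aligned residues ran from 32.1% to 99.1% with a median of 75.0%, and it reached 90% for 5. The closest gene was itself listed for 8 of the 23 higher pseudogenes (34.8%), and each of these 8 genes was higher too. These pairs rest on protein sequence. By nucleotide sequence the closest gene was another one for AT3G27095 (AT3G27473) and for AT1G55410 (AT5G42280). The closest gene by protein was listed for 0 of the 15 lower pseudogenes. The lysyl fragments among these 15 share the closest gene ATKRS-1, so the 15 are not all separate genes. A closest gene outside the table has no value here, so whether it changed was not tested. Among annotated protein-coding genes in general, 13.7% were listed as higher and 4.84% as lower in the authors' deposited table.

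The 8 pairs differed in how far the gene and the pseudogene moved alike. WAKL3 had a log2 fold change of 2.99 and WAKL1 of 3.34 in the authors' deposited table (mean of WAKL1 74.8, adjusted p 5.00e-18). AT2G29010 and its relative AT2G28960 stood at 1.84 and 2.23 (log2) in the authors' deposited table. In these 2 pairs the gene had the larger log2 fold change. AT3G46270, the closest gene of AT3G46250, had its fold fixed by the mean in the authors' deposited table, so it had no reads in WT and a sum of 56.3 normalized counts in dme (adjusted p 3.26e-05); no fold is given for it. The pseudogene had the larger log2 fold change in 3 other pairs: PERK2 at 2.56 with PERK1 at 1.65, CYP705A26P at 3.25 with CYP705A25 at 2.27, and AT1G55410 at 5.42 with EDA11 at 2.88, all as log2 fold changes in the authors' deposited table. AT2G15120 at 1.34 and AT2G15220 at 3.47 (log2) in the authors' deposited table were the pair with a large difference in favour of the gene. For AT3G27095, which had no reads in WT, the relative AT3G28650 had a log2 fold change of 3.23 by the authors' deposited table (adjusted p 0.0154). Standard errors were not used here, so the differences within pairs were not tested.

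**Figure D3:**
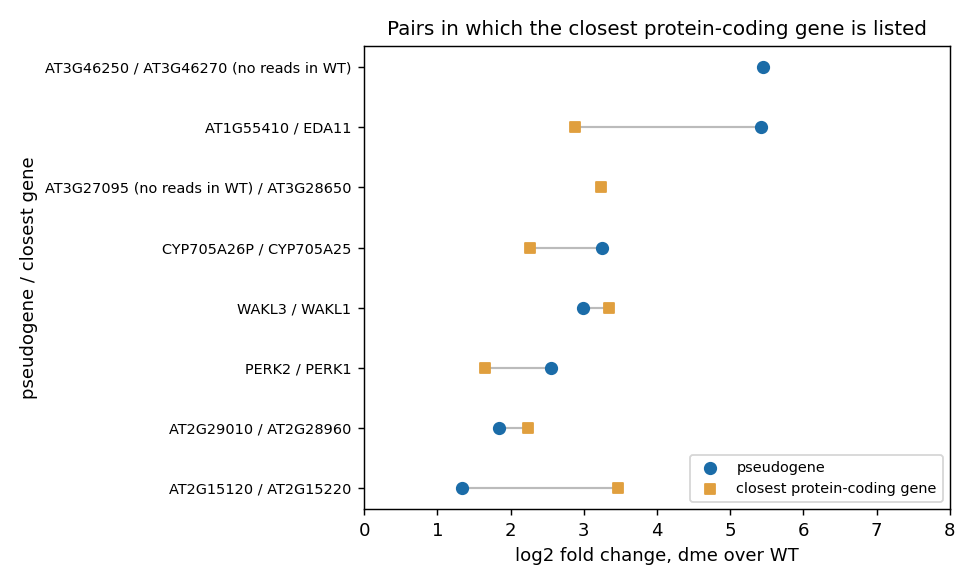
Log2 fold change of dme over WT in the authors' deposited table (horizontal) for the 8 pairs (vertical) of a pseudogene (blue circle) and its closest protein-coding gene (orange square), with no error bars because standard errors were not used here. All plotted values are above 0; AT3G27095 has no circle and AT3G46270 no square because they had no reads in WT.

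Many of the closest genes lay nearby. The closest gene lay on the same chromosome for 26 of the 38 and within 5 protein-coding genes for 17. These 17 were 12 of the 23 higher and 5 of the 15 lower pseudogenes with a closest gene. WAKL3 lies in such an array: its nearest annotated gene, WAKL2, was also higher, with a log2 fold change of 3.0 by the authors' deposited table (adjusted p 1.50e-42). Among the falling pseudogenes with an unlisted closest gene, 15 in number, identity ran from 32.1% to 94.7% with a median of 73.9%; it was 94.7% for AT2G20910 with VAB2 and 76.6% for DRP4D with DRP4C. Among the 15 rising ones with an unlisted closest gene it ran from 36.5% to 91.5% with a median of 76.6%; it was 83.0% for PUP20 with PUP19 and 66.7% for PSEUDOSRKA with ARK3. The identities of pairs listed together, 57.3% to 99.1%, overlapped with these.

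How far reads could be shared was measured as the share of 100-base words of the exons that occur elsewhere in the reference genome. For 33 of the 45 it was 0, 19 of them higher and 14 lower, and 12 shared at least 1 word. The share was over 10% for 8 pseudogenes. Apart from the mitochondrial copies, the highest were 43.3% for AT3G46250, 30.8% for AT2G15120, 20.8% for AT2G43830 and 19.7% for PSEUDOSRKA. Of the 8 pairs listed together, AT2G29010, PERK2, AT3G27095 and AT1G55410 shared no such word, WAKL3 shared 4.6% and CYP705A26P 17.7%. With 50-base words, 20 of the 45 shared none and 25 shared some. The read length and the handling of reads with several places are not stated in the labels or headers used here, and the part of shared reads in the changes was not tested.

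**Figure D4:**
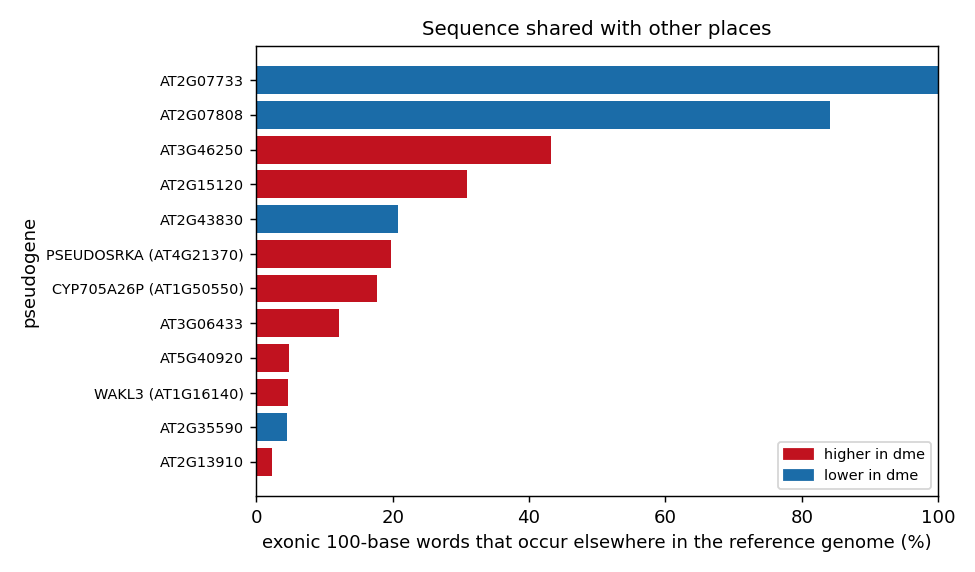
Percentage of exonic 100-base words that occur at another place in the TAIR10.1 reference (horizontal) for the 12 pseudogenes with at least 1 such word (vertical); bars are single values from the reference, coloured by direction in dme. AT2G07733 reaches 100% and AT2G07808 stands at 84.1%, while the other 33 pseudogenes are at 0 and not drawn.

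The pseudogenes also differed in the length of the longest open reading frame. The longest open reading frame, as a percentage of the closest protein's length, had a median of 50.1% over the 38 with a closest gene, 65.4% for the 23 higher and 33.2% for the 15 lower. It was under 50% for 7 of the higher and 12 of the lower ones. It reached 90% for 7, of which 6 were higher: PUP20 at 99%, ATL81 at 101.4%, AT1G55410 at 92.6%, AT2G13910 at 97.8%, AT1G63040 at 129.2% and AT2G19200 at 92.3%. The falling member was AT1G21525 at 107.6%. These frames were read from the Col-0 reference, and the Ler sequence was not used here. Whether a frame lies in the part that matches the closest protein was not tested. The length of a frame therefore does not show how much of that protein could still be encoded. The longest frame of AT1G79245 held 127 residues, 86.4% of the length of AT1G77570, although 4 stop codons lie inside the 88 aligned residues. The 3 neighbouring lysyl fragments, at 4.79%, 9.74% and 10.2%, were counted singly among the lower members.

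The pseudogenes were spread over all 5 chromosomes, with 15 on chromosome 1, 11 on chromosome 2, 13 on chromosome 3, 1 on chromosome 4 and 5 on chromosome 5. The nearest annotated gene on either side was listed for 9 of the 45 (20.0%), beside 33.5% of the other listed genes. A neighbour moved the same way for 7 of the 45 (15.6%), beside 25.5% of the other listed genes, among them WAKL2 beside WAKL3, CYP705A25 beside CYP705A26P and EDA11 beside AT1G55410, which are also the relatives described above or belong to their family. For 3 (6.67%), beside 8.94%, a neighbour moved the opposite way. With the nearest protein-coding gene on either side, 9 pseudogenes (20.0%, beside 29.9%) had a neighbour that moved the same way and 8 (17.8%, beside 11.4%) one that moved the opposite way. PUP20, higher in dme, lies beside DYW1, a gene of the pentatricopeptide repeat family, for which the authors' deposited table gives a log2 fold change of -1.14 (adjusted p 3.35e-19); its nearest protein-coding gene on the other side, TGG4, moved the same way as PUP20 with 3.52 (adjusted p 1.07e-51). AT5G56544, lower in dme, lies between AGP14, an arabinogalactan protein gene with 2.37, and OXS3, an oxidative stress gene with -2.09, both as log2 fold changes in the authors' deposited table. Among nearest protein-coding genes, AT5G44417 stands beside PDF1.2, a defensin gene of the jasmonate and ethylene response, which moved against it with -7.73 on that scale (adjusted p 1.10e-09, the authors' deposited table). The nearest protein-coding gene on the other side of AT5G44417, AtBBE27, also moved against it, with -1.03 (adjusted p 9.30e-08, the authors' deposited table).

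An overlap with another annotated gene was found for 7 members, 6 of them on the opposite strand and 1 on the same strand. Counting by strand could separate reads for the 6 alone. The overlapped gene was listed for 1 of them: AT5G23235, an isochorismatase-related pseudogene with a log2 fold change of 2.52 (adjusted p 0.0166), overlaps DJC76, which had a log2 fold change of -1.19 (adjusted p 2.89e-06), both in the authors' deposited table. Whether reads were counted by strand is not stated in the labels or headers used here. It is therefore unknown whether reads of partners on opposite strands were told apart.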

How the data were processed

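RNA of 3 WT and 3 dme libraries of whole seedlings was compared by the authors. Reads had been handled with HISAT2 2.1.0, Trimmomatic 0.36 and StringTie 2.1.3 on the build TAIR10, per the submitters' processing notes. Neither the labels nor the headers used here state the test, the counting or whether strand was used. Per the file headers, the authors deposited a mean normalized count per gene, a signal whose scaling is not stated, together with the log2 fold change, the fold as a linear ratio, and the adjusted p-value. It has 0 columns of per-sample values, so the depth is unknown and the planned limma or edgeR fit was not run. The values are the authors' own, with no error.

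The 45 members, the families and the tests were chosen with earlier results of these data known. Families came from the description of each gene. Full values were given to the 12 members with the largest mean, the 6 largest rises, the 6 largest falls and the 6 smallest adjusted p-values, 20 members in all; the others are named by locus and family, with their change where the text needs it. The closest protein-coding genes were added after seeing the data. They were found with BLAST+ 2.17.0 (blastx, annotated strand, E-value at most 1e-05, overlapping genes left out) among nuclear proteins translated with Biopython 1.88. Shared words of 100 and 50 bases, open reading frames and printed sequences came from RefSeq TAIR10.1, and no coordinate was converted. A fold was called fixed by the mean where the log2 mean minus the absolute log2 fold change was under -3. Repeated rows, 11 pairs, were counted once. Computations used Python 3.11.15 and pandas 2.3.3, and were tested on simulated data. Alternatives were stricter limits on fold, adjusted p and mean, shifts of all log2 fold changes by 0.5, and other definitions of neighbours.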

Additional observations from a re-analysis of the deposited data

How the results depend on the processing

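Counts are descriptions of the authors' deposited table, whose limits on fold and adjusted p decide which pseudogenes can be seen. The 27 higher and 18 lower pseudogenes became 19 and 11 at 4-fold or more, those with reads in 1 genotype alone included, and 10 and 7 with a mean of at least 50. At 4-fold, 63.3% were higher, beside 85.6% of all listed measurements. With a mean of at least 50, 58.8% were higher, beside 71.6%. With an adjusted p under 0.01 the pseudogenes were 20 and 14, or 58.8% higher, beside 73.6%. Without those sharing 100-base words, an alternative chosen after seeing the data, they were 19 and 14. That is 57.6% higher, beside 72.8% of all listed measurements, which were not filtered for such words. The share of higher ones, 60%, was 57.1% when all log2 fold changes were lowered by 0.5 (background 66.3%) and 69.2% when they were raised by 0.5 (background 86.0%). Genes under 2-fold have no row, so lowering could only remove higher genes and raising only lower ones. The direction of these 2 changes was thus fixed beforehand. Pseudogenes with a listed neighbour numbered 9 (20.0%, beside 33.5% of the other listed genes) with the nearest annotated gene on either side. They numbered 19 (42.2%, beside 53.0%) with the 2 nearest. With the nearest protein-coding gene, chosen after seeing the data, they numbered 15 (33.3%, beside 39.7%). Beside the 4.86% of transcribed pseudogenes, 0.928% of all annotated pseudogenes, those of transposable elements included, were listed, also chosen after seeing the data. No paired analysis was possible because the table gives no value per library; leaving out a library and a replicate block could not be run for the same reason. Depth per library is unknown, which limits what 0 reads in a genotype means for the 8 pseudogenes concerned.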
